A study of Mus musculus with 8 samples.

Results

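The genes described here are 10 genes of the MHC class I antigen presentation pathway, B2m, H2-K1, H2-D1, Tap1, Tap2, Tapbp, Psmb8, Psmb9, Psmb10 and Nlrc5. They were taken by name, with no rule on their values, from the 40838 rows of a deposited table of liver gene counts. Earlier results of these data were known when they were chosen. All 10 had enough counts to be tested among 17438 genes. The livers were those of C57BL/6 mice (an inbred strain) kept for 16 weeks on a diet that produces nonalcoholic steatohepatitis (NASH). In the Lpcat3 group (4 libraries), an adeno-associated virus (AAV) delivered Lpcat3 under TBG, a promoter active in hepatocytes, and in the eGFP group (4 libraries) the same kind of virus delivered enhanced green fluorescent protein. Both groups received the virus after 7 weeks of the diet and stayed on it for 9 weeks more. Age and sex are not given in the labels, nor is it stated that the libraries came from separate animals, so p-values measure the spread between these samples only.

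MHC class I molecules show fragments of a cell's own proteins on its surface to CD8 T cells and natural killer (NK) cells. The proteasome cuts proteins to peptides, and under interferon its catalytic subunits are replaced by the immunosubunits made from Psmb8, Psmb9 and Psmb10. The Tap1 and Tap2 transporter moves the peptides into the endoplasmic reticulum, tapasin (Tapbp) helps to load them, and a heavy chain such as H2-K1 or H2-D1 folds with the light chain B2m around each peptide. NLRC5 is a transactivator that acts with RFX and CREB family factors at a conserved promoter module of class I genes, and interferon gamma induces the whole set. Hepatocytes, macrophages, lymphocytes and endothelial cells all make class I, so whole liver RNA mixes their contributions. Fewer cells of a type and less RNA per cell cannot be told apart in it.

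The promoters of the chains and of Tap1 are shown because promoters of class I genes are known to carry the module through which NLRC5 and interferon act. RefSeq windows of 300 bases (250 before and 50 after the start, GRCm38.p6) were found for 8 of the 10 members, and Tap2 and Nlrc5 had no entry. Capitals mark matches on either strand to 4 short motifs that were chosen after the sequences had been seen: an NF-kB type motif (GGG, any 2 bases, TT, any base, CC), AANNGAAA (IRF type), TGACG (X2 or CRE type) and CCAAT (the Y box). In these windows no match overlaps another.
B2m, chr2:122147437-122147736, plus strand: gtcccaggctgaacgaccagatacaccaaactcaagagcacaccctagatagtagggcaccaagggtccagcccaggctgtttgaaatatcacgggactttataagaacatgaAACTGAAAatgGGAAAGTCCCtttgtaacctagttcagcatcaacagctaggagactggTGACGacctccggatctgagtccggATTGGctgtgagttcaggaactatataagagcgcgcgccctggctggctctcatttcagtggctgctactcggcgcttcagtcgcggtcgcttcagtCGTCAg
H2-K1, chr17:34000298-34000597, minus strand: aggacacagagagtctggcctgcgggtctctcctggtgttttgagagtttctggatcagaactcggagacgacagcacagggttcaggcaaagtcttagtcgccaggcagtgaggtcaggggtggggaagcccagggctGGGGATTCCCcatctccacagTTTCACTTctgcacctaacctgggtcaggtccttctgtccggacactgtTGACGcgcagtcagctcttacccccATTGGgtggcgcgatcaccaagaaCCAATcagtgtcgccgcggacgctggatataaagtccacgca
H2-D1, chr17:35262844-35263143, plus strand: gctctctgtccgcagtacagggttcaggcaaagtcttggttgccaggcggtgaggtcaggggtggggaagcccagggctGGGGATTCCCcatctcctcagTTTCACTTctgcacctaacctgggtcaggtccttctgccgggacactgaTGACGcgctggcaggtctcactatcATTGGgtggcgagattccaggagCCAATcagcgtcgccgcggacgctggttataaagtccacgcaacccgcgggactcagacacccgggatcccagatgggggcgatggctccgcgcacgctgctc
Tap1, chr17:34187306-34187605, plus strand: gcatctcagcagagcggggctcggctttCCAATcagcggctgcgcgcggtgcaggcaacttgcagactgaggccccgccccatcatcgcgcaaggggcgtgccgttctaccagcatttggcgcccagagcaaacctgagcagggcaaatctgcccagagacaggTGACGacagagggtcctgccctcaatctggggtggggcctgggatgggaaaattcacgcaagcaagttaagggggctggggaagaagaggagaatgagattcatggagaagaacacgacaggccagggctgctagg

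B2m, H2-K1 and H2-D1 each held all 4 motifs, as did 33 of 32851 windows of this length in the table (0.1%). Taken singly the motifs were found in 4.79% (NF-kB type), 23.9% (AANNGAAA), 20.8% (TGACG) and 37.4% (CCAAT) of all windows. In H2-K1 and in H2-D1 the first bases of the NF-kB, IRF, X2 and first Y box matches followed each other at 21, 49 and 25 bases. In B2m the IRF match came first, the NF-kB match lay 11 bases on, and the X2 and Y box matches followed at 48 and 25 bases. Tap1 and Psmb9 face away from each other, and their windows share 275 bases, so the TGACG and the CCAAT match of one are those of the other. The window of Tapbp held CCAAT alone of the 4 motifs, and those of Psmb8 and Psmb10 held none, which says only that these letters are not in these windows.

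The delivered gene was higher in each Lpcat3 library than in any eGFP library, a difference that passed in DESeq2 and not in edgeR. Lpcat3, a phospholipid acyltransferase, was at 274, 401, 465 and 311 CPM (TMM-scaled counts relative to library size) in Lpcat3 replicates 1 to 4, against 158, 148, 133 and 173 CPM in eGFP replicates 1 to 4. The log2 fold change came to 1.25 (SE 0.17; edgeR adjusted p = 0.164), and DESeq2 gave an adjusted p of 9.77e-09. Library totals ran from 22433625 to 25651874 counts, which put 149 to 216 counts behind a library's value for Psmb8, the member with the fewest, and 44859 to 59399 behind B2m. Hepatocyte markers were abundant in all libraries, with Alb, Apoa1, Ttr, Cps1, Pck1 and Hnf4a summing to 43083 to 71213 CPM in Lpcat3 livers and 35375 to 59966 CPM in eGFP livers. On the first principal component of all genes (40.9% of the variance) the libraries farthest apart were Lpcat3 replicate 3 at 51.0 and eGFP replicate 3 at -46.1. The title codes 1290 and 1317 hold 3 of 4 eGFP libraries and 1 of 4 Lpcat3 libraries, and their meaning is not given. Differences within these codes and within 1344 and 1345 are given for the members and for the genes named with an unadjusted p under 0.05, and for Lpcat3 the log2 differences were 0.91 and 1.16. Each such difference rests on 1 library of a group, Lpcat3 replicate 1 in codes 1290 and 1317 and eGFP replicate 4 in codes 1344 and 1345.

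No class I or immunoproteasome transcript differed between the groups beyond the spread between livers. Of the 10 members, 9 had a log2 fold change of less than 0.1 in size, where 41.4% of all genes did. By sign 6 were below 0, where 51.5% of all genes were, and 4 above, and the median was -0.0044, against -0.0065 over all genes tested. No member passed the test (0 of 10 in edgeR with Benjamini-Hochberg adjustment over 17438 genes, adjusted p = 0.621 to 0.998, 0 of 10 in DESeq2 and 0 of 10 in limma-voom), where edgeR called 0.00573% and DESeq2 0.292% of all genes tested. At an unadjusted p under 0.05 the count was also 0 of 10 in edgeR, where 8.48% of all genes lay below that level (3.3% higher and 5.18% lower). For every member the groups overlapped (0 of 10 without overlap, where 4.16% of all genes tested had none). The size of a difference that these livers leave room for was small for most: the 95% interval lay within 1.5-fold in either direction for 9 of 10 members, and for 58.5% of all genes tested.

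**Figure D1:**
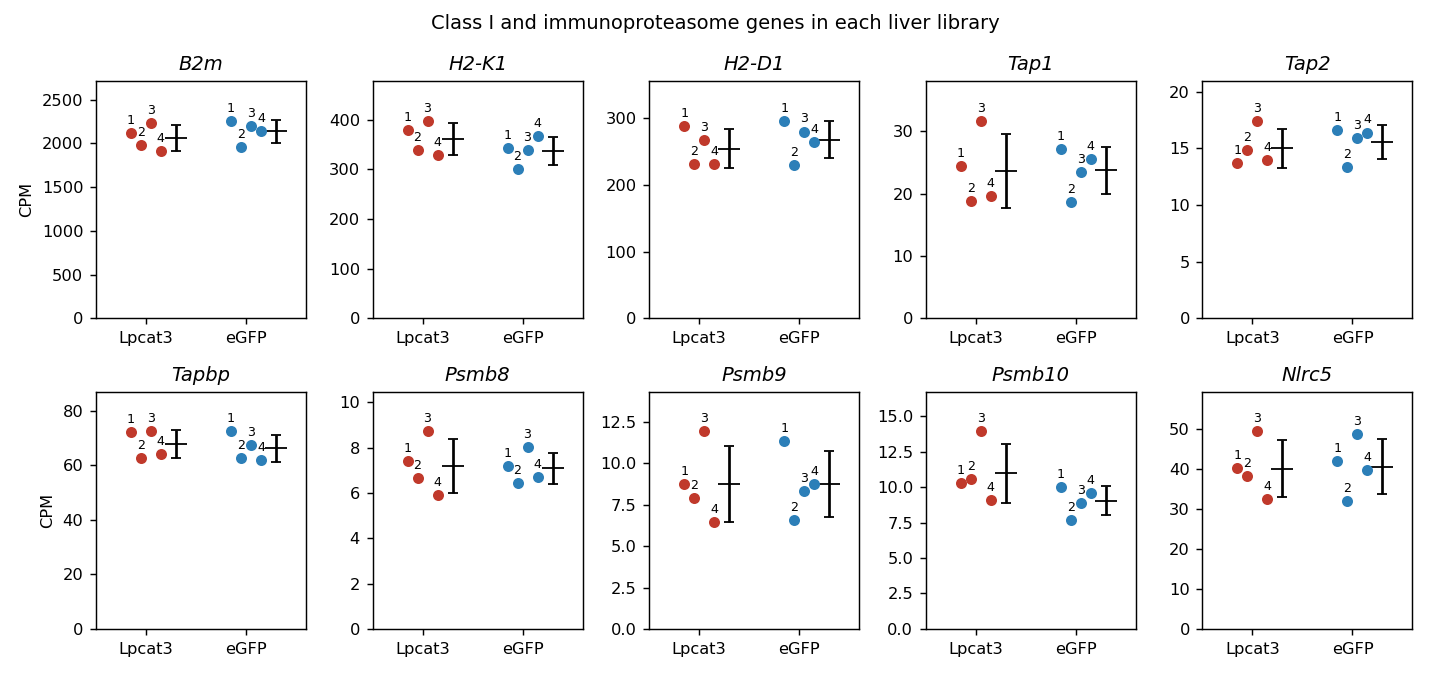
CPM (TMM-scaled, y axis from 0) of each of the 10 genes in the 4 Lpcat3 libraries (red, left) and the 4 eGFP libraries (blue, right), each point marked with its replicate number; black bars give the mean and SD of 4 libraries. The groups overlap in every panel, and Lpcat3 replicate 3 is the highest library for 7 of the 10 genes.

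The light chain B2m, shared by all class I molecules, was the most abundant member. It was at 2123, 1982, 2233 and 1910 CPM in Lpcat3 replicates 1 to 4, against 2262, 1957, 2205 and 2142 CPM in eGFP replicates 1 to 4. The lowest and the highest of the 8 values differed by 1.18-fold, and the lowest in each group, Lpcat3 replicate 4 and eGFP replicate 2, were nearly level. The log2 fold change was -0.05 (SE 0.1, edgeR adjusted p = 0.874), with a 95% interval of 0.821 to 1.13 for the fold.

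H2-K1, a classical heavy chain, had 380, 339, 398 and 328 CPM in Lpcat3 replicates 1 to 4, against 344, 300.0, 339 and 367 CPM in eGFP replicates 1 to 4. H2-D1, the other classical heavy chain of this strain, had 289, 231, 267 and 231 CPM in Lpcat3 replicates 1 to 4, against 296, 230.1, 280 and 265 CPM in eGFP replicates 1 to 4. Their log2 fold changes had opposite signs, 0.1 (SE 0.09) for H2-K1 and -0.07 (SE 0.11) for H2-D1, with edgeR adjusted p of 0.745 and 0.833. Low libraries were shared, since eGFP replicate 2 had the least of both heavy chains. Class I genes are close copies of each other, and 0.91% of the 101-base windows of H2-K1 transcripts and 3.55% of those of H2-D1 occur exactly in transcripts of another gene, H2-Q genes among them. Reads that differ by a base or more can still be misplaced, so the split of reads among these genes is uncertain.

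The peptide transporter subunits were scarcer. Tap1 was at 24.4, 18.8, 31.7 and 19.7 CPM in Lpcat3 replicates 1 to 4, against 27.2, 18.6, 23.5 and 25.6 CPM in eGFP replicates 1 to 4. Tap2 was at 13.7, 14.8, 17.5 and 14 CPM in Lpcat3 replicates 1 to 4, against 16.7, 13.3, 15.9 and 16.4 CPM in eGFP replicates 1 to 4. Lpcat3 replicate 3 had the most and eGFP replicate 2 the least of both subunits, so each group held an extreme. The log2 fold changes were -0.01 (SE 0.18) for Tap1 and -0.05 (SE 0.11) for Tap2, with edgeR adjusted p of 0.993 and 0.877. Tapbp, which bridges the transporter and the empty class I molecule, was at 72.1, 62.8, 72.4 and 64.2 CPM in Lpcat3 replicates 1 to 4, against 72.5, 62.8, 67.5 and 61.9 CPM in eGFP replicates 1 to 4. It varied least of the members, 1.17-fold from lowest to highest, and its log2 fold change was 0.04 (SE 0.08; adjusted p = 0.888 in edgeR). Exons of genes on the opposite strand cover 24.9% of the exonic bases of Tapbp and 18.5% of those of Tap2 in the GENCODE M21 annotation, and the use of strand in counting is not given in the sources used here.

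Among the immunosubunits, Psmb8 (LMP7, which takes the place of Psmb5) was at 7.4, 6.67, 8.73 and 5.93 CPM in Lpcat3 replicates 1 to 4, against 7.19, 6.45, 8.02 and 6.69 CPM in eGFP replicates 1 to 4. Psmb9 (LMP2, in place of Psmb6) was at 8.74, 7.91, 11.9 and 6.48 CPM in Lpcat3 replicates 1 to 4, against 11.4, 6.58, 8.35 and 8.76 CPM in eGFP replicates 1 to 4. Both spread widely within each group, up to 1.84-fold for Psmb9 within Lpcat3 livers and 1.73-fold within eGFP livers, and their group means differed by less than that. The log2 fold changes were 0.02 (SE 0.14) for Psmb8 and -0.0024 (SE 0.21) for Psmb9, with edgeR adjusted p of 0.974 and 0.998. Psmb9 had the widest interval of the set, 0.72 to 1.38 for the fold. Exons of the readthrough gene Gm20496 on the opposite strand cover 14.7% of the exonic bases of Psmb8.

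Psmb10 (MECL-1, in place of Psmb7) had the largest difference among the members. It was at 10.3, 10.6, 13.95 and 9.07 CPM in Lpcat3 replicates 1 to 4, against 10.02, 7.68, 8.87 and 9.62 CPM in eGFP replicates 1 to 4. In the Lpcat3 group 3 libraries lay above every eGFP library, and Lpcat3 replicate 4 lay among them. That came to 0.28 on the log2 scale (SE 0.14), with an edgeR adjusted p of 0.621 and an unadjusted one of 0.0857, and the 95% interval of the fold was 0.968 to 1.52. Within codes 1290 and 1317 its log2 CPM differed by 0.22, and within 1344 and 1345 by 0.2. On leaving out single libraries the log2 fold change stayed above 0 (0.14 without Lpcat3 replicate 3 to 0.36 without Lpcat3 replicate 4) and the adjusted p ran from 0.408 to 0.881 in edgeR.

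Nlrc5, the transactivator, was at 40.2, 38.3, 49.5 and 32.5 CPM in Lpcat3 replicates 1 to 4, against 42.0, 32.1, 48.7 and 39.8 CPM in eGFP replicates 1 to 4. Each group had 1 library near 49 CPM, replicate 3 in both, and 1 near 32 CPM. The log2 fold change was -0.02 (SE 0.15, edgeR adjusted p = 0.971). Over all members the log2 differences in CPM were -0.15 (Tap2) to 0.22 (Psmb10) within codes 1290 and 1317, and -0.17 (Tap1) to 0.2 (Psmb10) within codes 1344 and 1345. Signs differed between those divisions for H2-K1 (0.22 and -0.05), H2-D1 (0.11 and -0.13), Tap1 (0.09 and -0.17) and Psmb9 (0.03 and -0.04).

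**Figure D2:**
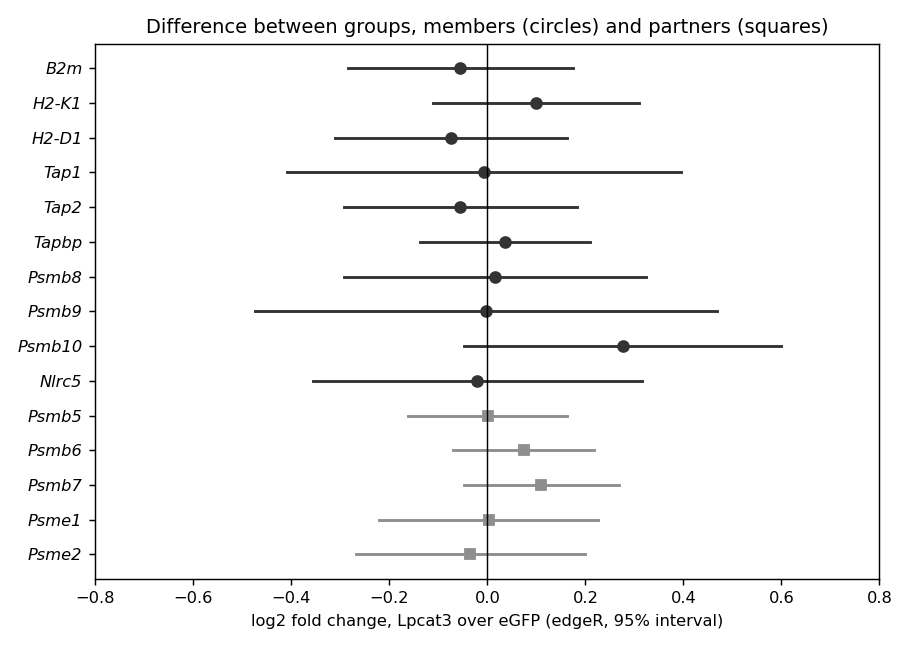
Log2 fold change of the Lpcat3 group over the eGFP group (x axis) with its 95% interval from the edgeR fit, for the 10 members (circles) and for the constitutive subunits Psmb5, Psmb6 and Psmb7 and the activator subunits Psme1 and Psme2 (squares). Each interval crosses 0, and that of Psmb10 reaches farthest to the right.

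Per kilobase of exon the members span about 3 orders of magnitude. As level per length, B2m was at 2397 ± 168 CPM per kb in Lpcat3 livers and 2490.2 ± 154 CPM per kb in eGFP livers (SD, n = 4 each). H2-K1 followed at 123 ± 11.3 and 115 ± 9.44 CPM per kb, and H2-D1 at 98.6 ± 11.1 and 104 ± 10.9 CPM per kb, in the Lpcat3 and the eGFP group, and their ranges overlapped in both groups. Tapbp came next at 18.7 ± 1.41 CPM per kb in Lpcat3 livers and 18.2 ± 1.34 CPM per kb in eGFP livers, beside the constitutive subunits Psmb7 (34.5 ± 1.73 and 32.0 ± 2.16), Psmb5 (19.1 ± 0.901 and 19.1 ± 0.993) and Psmb6 (18.3 ± 0.858 and 17.4 ± 0.872 CPM per kb). Psmb10 (6.44 ± 1.23 in Lpcat3 livers, 5.31 ± 0.604 CPM per kb in the eGFP group), Nlrc5 (4.72 ± 0.831 and 4.79 ± 0.807), Tap1 (4.32 ± 1.08 and 4.33 ± 0.681) and Tap2 (3.97 ± 0.452 and 4.12 ± 0.405 CPM per kb) formed a group whose neighbours in this order overlapped. Psmb9, at 2.4 ± 0.631 CPM per kb in Lpcat3 livers and 2.39 ± 0.539 CPM per kb in eGFP livers, and Psmb8, at 2.12 ± 0.353 and 2.1 ± 0.205 CPM per kb, were lowest and overlapped each other. The lengths are unions of all annotated exons in GENCODE M21 (GRCm38), not the authors' annotation, and retained introns in that union lower the value of some genes more than of others.

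The balance between immunosubunits and the subunits they replace did not differ between the groups beyond the spread between livers. The ratio of Psmb8 to Psmb5 in CPM was 0.411, 0.414, 0.508 and 0.338 in Lpcat3 replicates 1 to 4, against 0.414, 0.4, 0.471 and 0.366 in eGFP replicates 1 to 4. That of Psmb9 to Psmb6 was 0.272, 0.22, 0.343 and 0.19 in Lpcat3 replicates 1 to 4, against 0.356, 0.188, 0.265 and 0.276 in eGFP replicates 1 to 4. That of Psmb10 to Psmb7 was 0.0905, 0.088, 0.111 and 0.0804 in Lpcat3 replicates 1 to 4, against 0.093, 0.07, 0.0877 and 0.0808 in eGFP replicates 1 to 4. The groups overlapped in all 3 ratios, and in each Lpcat3 replicate 3 was the highest library of its group and Lpcat3 replicate 4 the lowest. The log2 differences (Lpcat3 minus eGFP) were 0.01, -0.08 and 0.16 in that order, with two-sided exact permutation p of 1, 0.771 and 0.371 over 70 relabellings (each 1 after adjustment over the 3 ratios, and 0.0286 the smallest possible). The level of a ratio is not read here, because genes of different length are compared. Of the 101-base windows of Psmb5 transcripts 21.7% occur exactly in transcripts of another gene, against 0.0% for Psmb6 and 6.33% for Psmb7. Exons on the opposite strand cover 11.8% of the exonic bases of Psmb7.

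The constitutive subunits themselves differed little, with log2 fold changes of 0.00065 (Psmb5), 0.07 (Psmb6) and 0.11 (Psmb7). Psmb7 was at 118 ± 5.92 CPM in Lpcat3 livers and 109 ± 7.4 CPM in eGFP livers (SD, n = 4 each; edgeR adjusted p = 0.662). The subunits of the interferon-induced PA28 activator, Psme1 and Psme2, were at 32.3 ± 2.6 and 23.1 ± 3.51 CPM in Lpcat3 livers and at 32.2 ± 4.06 and 23.7 ± 1.005 CPM in eGFP livers, with adjusted p of 0.995 and 0.922 in edgeR. Of the 101-base windows of Psme2 transcripts 18.3% occur exactly in those of Psme2b, while 0.3% of the windows of Psme1 are shared with another gene. Of the other 11 subunits of the 20S core, 10 had a log2 fold change above 0 and 1 below, where 51.5% of all genes tested were below 0. Their median was 0.08 and their range -0.0084 to 0.15. In edgeR 0 of 11 passed, and 0 in DESeq2. At an unadjusted p under 0.05 in edgeR lay 0 of 11, where 8.48% of all genes tested did. Psmb4 was at 51.2 ± 2.24 CPM in Lpcat3 livers and 47.1 ± 0.822 CPM in eGFP livers, without overlap, as for 4.16% of all genes tested. Psma7 was at 36.9 ± 1.36 and 33.2 ± 2.6 CPM in the Lpcat3 and the eGFP group. The sign of Psmb4, Psmb6 and Psmb7 turned with library totals in place of TMM, a scaling that moved the median gene from -0.0065 to -0.13 on the log2 scale. Of 9 genes for proteasome activators and assembly factors 7 were above 0 and 2 below, where 51.5% of all genes tested were below 0. Of these, 0 passed in edgeR (0 at an unadjusted p under 0.05, where 8.48% of all genes tested lay, and 0 in DESeq2). Psme4 was at 203 ± 11.1 and 187 ± 10.8 CPM and Psmg1 at 11 ± 1.13 and 10.1 ± 0.401 CPM, in the Lpcat3 and the eGFP group.

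The members varied between livers within each group. Lpcat3 replicate 3 had the highest CPM of all 8 libraries for 7 of 10 members and eGFP replicate 1 for the other 3. At the other end eGFP replicate 2 was lowest for 6 members, Lpcat3 replicate 4 for 3 and eGFP replicate 4 for 1 (Tapbp). eGFP replicate 2 was among the lowest 3 libraries for all 10 members, and Lpcat3 replicate 4 for 9 of them. The mean of the members' log2 CPM, each taken relative to its own mean over the 8 libraries, was 0.05, -0.09, 0.27 and -0.19 in Lpcat3 replicates 1 to 4, against 0.13, -0.23, 0.05 and 0.02 in eGFP replicates 1 to 4. The Lpcat3 group thus held the highest mean and the eGFP group the lowest.

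**Figure D3:**
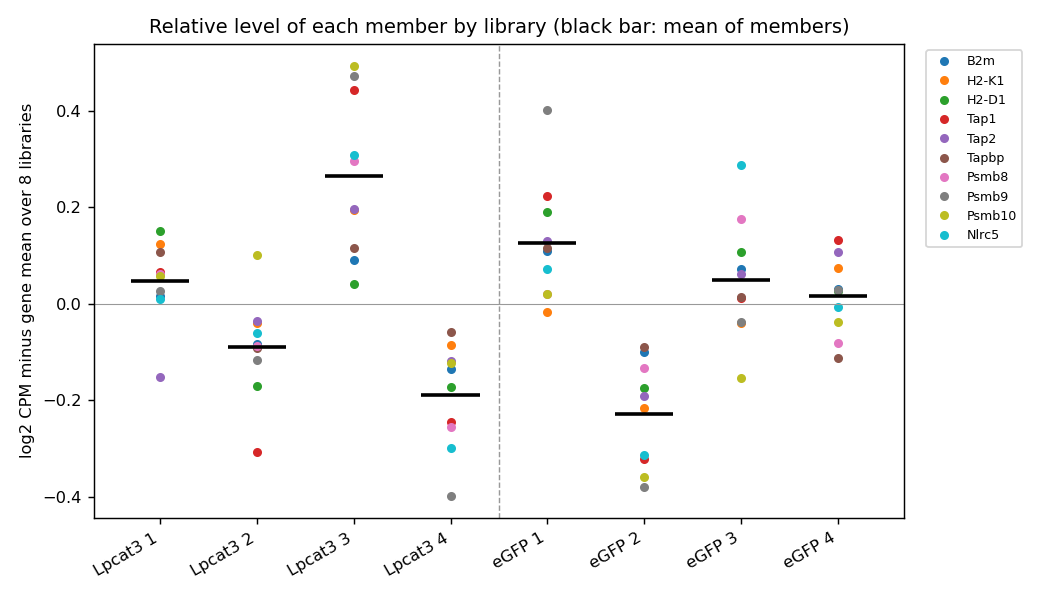
Log2 CPM (prior count 2) of each member minus that gene's mean over the 8 libraries (y axis), for the 4 Lpcat3 libraries (left of the dashed line) and the 4 eGFP libraries (right); colours are genes and black bars are the mean of the 10 genes. The members lie together above 0 in Lpcat3 replicate 3 (mean 0.27) and together below 0 in Lpcat3 replicate 4 (-0.19) and eGFP replicate 2 (-0.23).

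Across the 8 livers the members went up and down together. Of the 45 pairs of members 42 had a Pearson r of log2 CPM above 0.5, with a median of 0.74 and a range of 0.31 to 0.93, and the median r of deviations from the group means was 0.79. These values are a description, since the genes share libraries and their scaling. The share of all genes that follow Nlrc5 as closely is not given here. The tests below therefore do not show relations particular to the members. Against Nlrc5, Psmb8 had the closest relation (Pearson r = 0.93, Spearman rho = 0.95, exact permutation p = 0.000893 and 0.00114, adjusted over 9 genes 0.00804 and 0.0103), and r was 0.96 without the 2 libraries farthest from the Nlrc5 median, eGFP replicate 2 and Lpcat3 replicate 3. For B2m r was 0.88 and rho 0.88 (exact permutation p = 0.00407 and 0.00724, adjusted 0.0183 and 0.0326), and r was 0.84 without those libraries. On leaving out single libraries the relation of Psmb8 passed each time (r = 0.907 to 0.962), while that of B2m did not pass without Lpcat3 replicate 2, Lpcat3 replicate 4 or eGFP replicate 2 (adjusted exact permutation p of up to 0.104). With the replicate number as a block neither relation passed (r = 0.72 for Psmb8 and 0.79 for B2m).

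The relation of Nlrc5 with the other members was looser. Tap1 (r = 0.79, rho = 0.81), Tap2 (r = 0.78, rho = 0.76) and Psmb9 (r = 0.8, rho = 0.81) each had an adjusted exact permutation p of 0.0446 for r, and of 0.049, 0.0551 and 0.049 for rho. Without eGFP replicate 2 and Lpcat3 replicate 3 their r was 0.55, 0.55 and 0.59, and the calls of Tap1 and Psmb9 were lost on leaving out any of 7 single libraries and that of Tap2 on any of 6, so they rest on few libraries. H2-D1 (r = 0.71, rho = 0.79), H2-K1 (r = 0.69, rho = 0.69), Psmb10 (r = 0.64, rho = 0.48) and Tapbp (r = 0.62, rho = 0.67) did not pass (adjusted exact permutation p for r = 0.069, 0.069, 0.0942 and 0.115, and for rho 0.0503, 0.0892, 0.243 and 0.0935). For H2-K1 and Psmb10 r was 0.21 and -0.12 without those libraries, while both passed without eGFP replicate 3 alone (r = 0.876 and 0.909, adjusted exact permutation p = 0.0205 and 0.0111). The 4 libraries of each code division are too few for a correlation of their own.

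**Figure D4:**
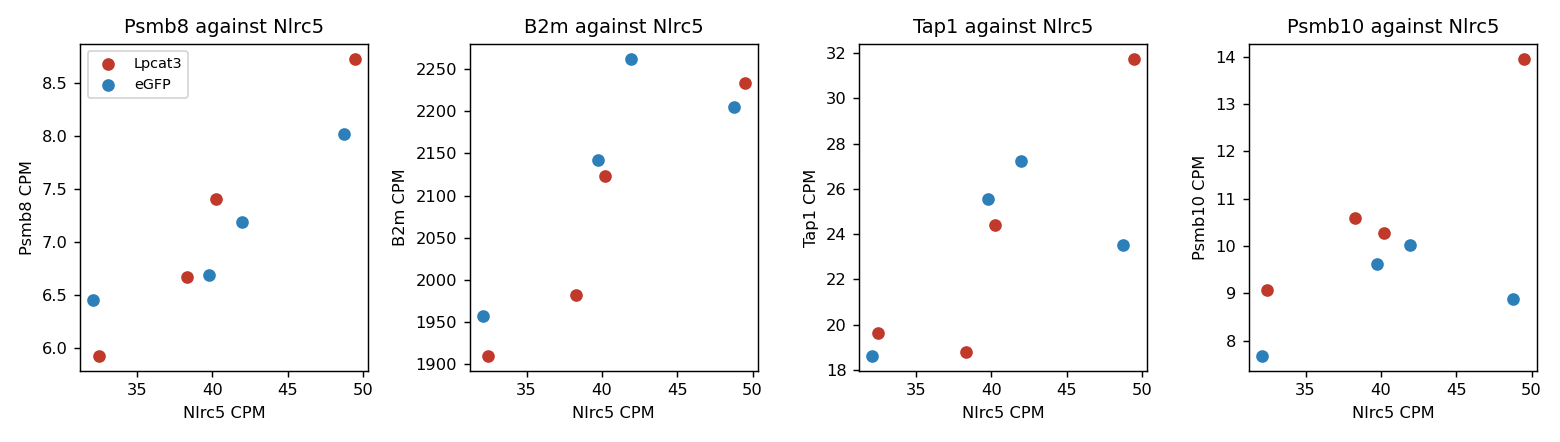
CPM of Psmb8, B2m, Tap1 and Psmb10 (y axes, not from 0) against CPM of Nlrc5 (x axis) in the 4 Lpcat3 libraries (red) and the 4 eGFP libraries (blue), 1 point per library. Psmb8 follows Nlrc5 closely in both groups (r = 0.93), while r for Psmb10 is 0.64, and 0.402 without its highest point, Lpcat3 replicate 3.

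The genes whose pattern over the 8 libraries was most like the mean of the members were, by Pearson r, Igtp (0.96), Rps27 (0.95), Mpg (0.94), Iigp1 (0.94), Ppp4r1l-ps (0.94) and Tgtp1 (0.94). They were searched among 12545 genes, of which 17 had an r above 0.9 and 3 below -0.9. Igtp, Iigp1 and Tgtp1 encode interferon-inducible GTPases of cell-autonomous defence, Rps27 a ribosomal protein and Mpg a DNA glycosylase. Tgtp1 showed the pattern at its widest, at 20.4, 12.9, 36.6 and 7.6 CPM in Lpcat3 replicates 1 to 4, against 32.6, 8.9, 21.9 and 11.6 CPM in eGFP replicates 1 to 4. Igtp was at 25.5, 17.9, 36.2 and 12.8 CPM in Lpcat3 replicates 1 to 4, against 28.8, 13.7, 20.1 and 18.8 CPM in eGFP replicates 1 to 4. Iigp1 was at 360, 344, 427 and 295 CPM in Lpcat3 replicates 1 to 4, against 362, 278, 334 and 332 CPM in eGFP replicates 1 to 4. Lpcat3 replicate 3 was the highest library for all 3 of these GTPase genes, and none of the 6 genes passed the test between groups (edgeR adjusted p = 0.757 to 0.998, 0 at an unadjusted p under 0.05, and 0 in DESeq2).

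Other class I heavy chain genes and relatives stood much as the members did, 8 of 16 tested above 0 and 8 below, where 51.5% of all genes tested were below 0. The median log2 fold change was -0.02 and the range -0.24 to 0.27. In edgeR 0 of 16 passed (0 at an unadjusted p under 0.05, where 8.48% of all genes tested lay, and 0 in DESeq2). H2-T3 had 7 counts over all libraries and was not tested. Fcgrt, the neonatal Fc receptor, which recycles antibodies and albumin, was at 83.1 ± 1.54 CPM in Lpcat3 livers and 75.8 ± 5.45 CPM in eGFP livers (SD, n = 4 each; edgeR adjusted p = 0.606). Cd1d1, which presents lipids to NKT cells, was at 143, 164, 206 and 143 CPM in Lpcat3 replicates 1 to 4, against 138, 140.5, 103 and 164 CPM in eGFP replicates 1 to 4 (edgeR adjusted p = 0.648). H2-Q6 was at 30.1 ± 5.87 CPM in Lpcat3 livers and 25.7 ± 2.81 CPM in eGFP livers (edgeR adjusted p = 0.646), with the split of reads among class I copies uncertain as above. Without Lpcat3 replicate 3, its highest library, the log2 fold change was 0.09 for H2-Q6 and 0.14 for Cd1d1, against 0.23 and 0.27 with all libraries.

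Of 14 genes for peptide loading and trimming 10 were below 0, where 51.5% of all genes tested were, with a median log2 fold change of -0.08. Of these, 0 of 14 passed in edgeR and 0 in DESeq2. In edgeR 2 had an unadjusted p under 0.05, both lower, where 5.18% of all genes tested were lower at that level. Calr, the chaperone calreticulin of the loading complex, was at 519, 459, 437 and 462 CPM in Lpcat3 replicates 1 to 4, against 507, 572, 583 and 514 CPM in eGFP replicates 1 to 4 (log2 fold change -0.21, SE 0.09, edgeR adjusted p = 0.581). Hspa5, the general chaperone BiP, was at 206 ± 21.8 CPM in Lpcat3 livers and 262 ± 55.8 CPM in eGFP livers, and Pdia3, a disulfide isomerase of the loading complex, at 232 ± 8.26 and 256 ± 17.5 CPM, with edgeR adjusted p of 0.581 and 0.616. All 3 also serve the folding of other secreted proteins, and the groups overlapped in each. Within codes 1290 and 1317 and within codes 1344 and 1345 the log2 differences were -0.09 and -0.18 for Calr and -0.22 and -0.10 for Hspa5. In 1 of the 14 genes the groups did not overlap, where 4.16% of all genes tested had no overlap. This was Tpp2, a cytosolic peptidase named after its values were seen. It was at 67.6, 67.5, 68.8 and 68.9 CPM in Lpcat3 replicates 1 to 4, against 71.0, 69.6, 82.8 and 69.2 CPM in eGFP replicates 1 to 4 (edgeR adjusted p = 0.669).

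Among the regulators of class I genes and the genes of interferon gamma signalling most values were below 0, and none passed. Of 17 genes of transcriptional control of class I 13 were below 0, where 51.5% of all genes tested were, with a median log2 fold change of -0.07. Of these, 0 passed in edgeR and 0 in DESeq2. In edgeR 1 gene had an unadjusted p under 0.05, lower, where 5.18% of all genes tested were lower at that level. That gene was Irf1, an interferon-induced activator of class I genes, at 23.4, 16.6, 23.8 and 21.6 CPM in Lpcat3 replicates 1 to 4, against 30.4, 22.7, 34.5 and 27.8 CPM in eGFP replicates 1 to 4 (log2 fold change -0.44, SE 0.15, edgeR unadjusted p = 0.0148, adjusted p = 0.564). Only eGFP replicate 2 lay within the range of the Lpcat3 group, and the log2 differences were -0.30 within codes 1290 and 1317 and -0.45 within codes 1344 and 1345. Ciita, the class II counterpart of Nlrc5, was at 9.15 ± 1.45 CPM in Lpcat3 livers and 12.7 ± 4.27 CPM in eGFP livers, and Nfkb1 at 28.0 ± 1.24 and 35.8 ± 10.3 CPM, with edgeR adjusted p of 0.604 and 0.603. Without eGFP replicate 3, at 50.7 CPM, the log2 fold change of Nfkb1 was -0.14, against -0.35 with all libraries, and without eGFP replicate 1 that of Ciita was -0.27, against -0.48. Of 13 genes of interferon gamma signalling that were tested 9 were below 0, where 51.5% of all genes tested were, with a median of -0.12. Of these, 0 passed in edgeR (0 at an unadjusted p under 0.05, and 0 in DESeq2). That list mixes parts of the signalling path with its targets, such as Gbp2, Irgm1 and Cxcl9. Jak1, the receptor kinase, was at 146 ± 14.1 and 168 ± 17.5 CPM, Ifngr2, a receptor chain, at 33.5 ± 3.0 and 38.5 ± 4.94 CPM, and Socs3, a feedback inhibitor, at 4.25 ± 1.25 and 5.8 ± 1.18 CPM, in the Lpcat3 and the eGFP group. Without Lpcat3 replicate 2 the log2 fold change of Socs3 was -0.26, against -0.45 with all libraries. Ifng itself had 7 counts over all 8 libraries and was not tested.

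The list of class I receptors was Cd8a, Cd8b1, Klra2, Klrd1, Klrc1, Klrk1, Pirb, Lilrb4a and Cd3e. It is loosely drawn, since Cd3e is a T cell signalling chain. Whether each of the others, Lilrb4a among them, binds class I was not examined here. Cd3e, Cd8a and Cd8b1 are also among the T and NK cell markers given next. All 8 genes tested were below 0, where 51.5% of all genes tested were, with a median log2 fold change of -0.74. None of the 8 passed in edgeR or DESeq2, and 3 had an unadjusted p under 0.05 in edgeR, all lower, where 5.18% of all genes tested did. Pirb, an inhibitory class I receptor of myeloid and B cells, was at 13.9, 10.03, 13.8 and 8.55 CPM in Lpcat3 replicates 1 to 4, against 24.1, 14.7, 28.9 and 18.1 CPM in eGFP replicates 1 to 4 (log2 fold change -0.89, SE 0.23, edgeR adjusted p = 0.564, DESeq2 adjusted p = 0.069), with no overlap of the groups, as for 4.16% of all genes tested. Klra2, a Ly49 family receptor, was at 4.9 ± 1.12 CPM in Lpcat3 livers and 9.91 ± 3.94 CPM in eGFP livers, and Lilrb4a, an inhibitory receptor of myeloid cells, at 24.2 ± 3.24 and 42.7 ± 21.1 CPM, with edgeR adjusted p of 0.564 and 0.569. Without eGFP replicate 3, its highest library, the log2 fold change of Lilrb4a was -0.45, against -0.82 with all libraries. Within codes 1290 and 1317 and within codes 1344 and 1345 the log2 differences were -0.64 and -0.77 for Pirb, -0.60 and -0.77 for Klra2 and -0.63 and -0.32 for Lilrb4a. As said above, each of these rests on 1 library of a group. Cd8b1, with 69 counts in all, was not tested. Many Ly49 genes are close copies of each other. Whether that holds for Klra2 was not looked up, so its value may be uncertain. The summed CPM of this list was 40.6 to 53.1 in Lpcat3 livers and 49.8 to 121 in eGFP livers. Macrophage markers, given next, were also lower in sum in Lpcat3 livers, and their part in these values was not tested.

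Markers of the cells that could carry these transcripts varied as well. The 14 macrophage and Kupffer cell markers summed to 340.2 to 437 CPM in Lpcat3 livers and 456 to 709 CPM in eGFP livers, without overlap. By sign 13 of 14 were below 0, where 51.5% of all genes tested were. None of the 14 passed in edgeR or DESeq2, and 6 had an unadjusted p under 0.05 in edgeR, all lower, where 5.18% of all genes tested did. The 14 T and NK cell markers summed to 6.44 to 8.29 CPM in Lpcat3 livers and 5.76 to 15.7 CPM in eGFP livers, and the 7 B and plasma cell markers to 10.02 to 15.6 and 12.3 to 21.7 CPM, with overlap in both lists. The 7 dendritic cell markers summed to 25.9 to 28.2 CPM in Lpcat3 livers and 29.5 to 35.1 CPM in eGFP livers, without overlap. The 7 endothelial markers summed to 348 to 441 CPM in Lpcat3 livers and 441 to 476 CPM in eGFP livers, just without overlap. Taken singly, 1 of 7 dendritic cell and 1 of 7 endothelial markers had no overlap, as had 1 of 10 tested T and NK cell markers. Among the macrophage and Kupffer cell markers 0 of 14 had no overlap. Of all genes tested 4.16% had no overlap. No marker in any of the cell type lists was at 0 in all libraries. The other lists overlapped between groups, at 436 to 664 and 536 to 638 CPM for 7 stellate cell and fibroblast markers, 56.6 to 143 and 55.0 to 104 CPM for 6 cholangiocyte markers, and 1.05 to 2.94 and 1.82 to 8.39 CPM for 6 neutrophil markers. Below 0 were 8 of 10 tested T and NK cell, 6 of 6 B and plasma cell, 5 of 7 dendritic cell, 7 of 7 endothelial, 4 of 7 stellate cell and fibroblast, 1 of 6 cholangiocyte and 3 of 3 neutrophil markers, while 6 of 6 hepatocyte markers were above 0 (median log2 fold change 0.14). None of the markers in these lists passed in edgeR or DESeq2. At an unadjusted p under 0.05 in edgeR lay 2 T and NK cell, 2 dendritic cell and 3 endothelial markers, all lower. There were also 2 cholangiocyte markers, both higher. Of all genes tested 5.18% were lower and 3.3% higher at that level. Lpcat3 replicate 3, the library highest for most members, had the lowest sum of macrophage markers of all 8, at 340.2 CPM, while eGFP replicate 1, the next in members' mean, had the highest at 709 CPM. The 10 members summed to 2621 to 3105 CPM in Lpcat3 livers and 2635 to 3089 CPM in eGFP livers, and the part of these cells in the members' levels was not tested.

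**Figure D5:**
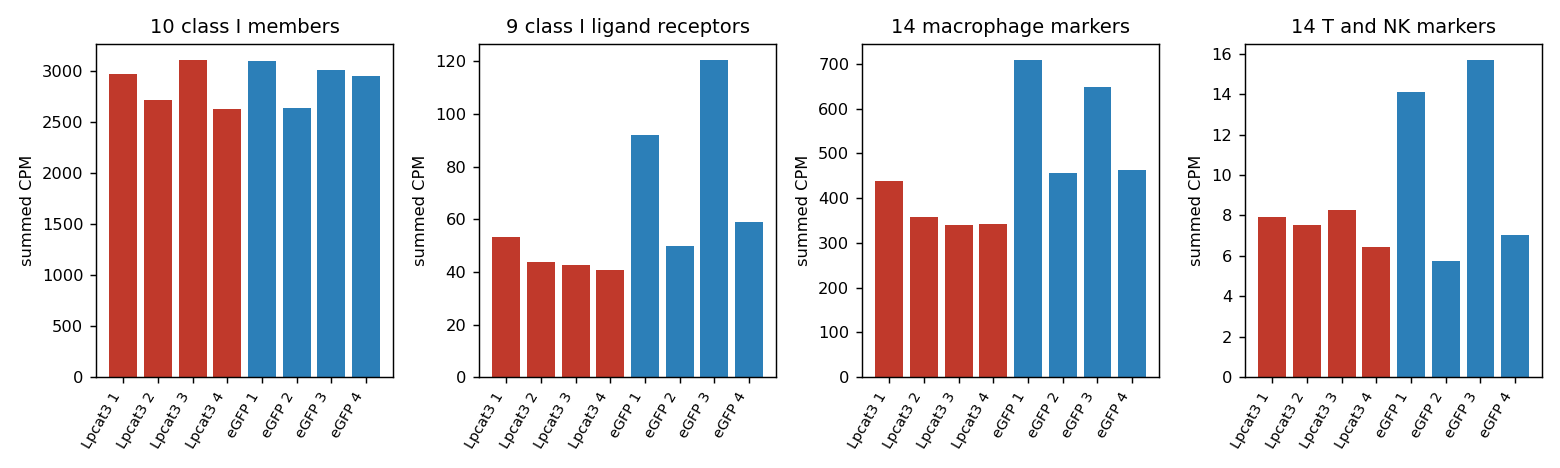
Summed CPM per library (y axes from 0) of the 10 members and of 9 genes listed as class I receptors. The other panels hold 14 macrophage and Kupffer cell markers and 14 T and NK cell markers. The 4 Lpcat3 libraries are red (left) and the 4 eGFP libraries blue (right). The members' sum lies between 2621 and 3105 CPM throughout, while the macrophage markers range from 340.2 to 709 CPM.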

How the data were processed

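RNA was extracted from frozen livers with TRIzol, ribosomal RNA was removed, and stranded libraries were read for 101 cycles from one end, per the labels' protocols. The authors deposited raw counts per NCBI gene ID, whole numbers that were not normalized. The submitters' processing notes name bcl2fastq 2.20, DESeq2 and GRCm39; no aligner, counter or strand setting is named there or elsewhere in the sources used. Columns were joined by the codes in the titles (0 left over), and symbols came from a RefSeq table (GRCm38), which matched 39397 rows.

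The counts were filtered with filterByExpr (minimum count 10), scaled with TMM and tested with edgeR 4.0.16 (R 4.3.3, quasi-likelihood with robust estimation, group as the only term, called at an adjusted p of 0.05). CPM were computed here from the deposited counts, and log2 CPM with a prior count of 2. Intervals of fold changes are 95% intervals of the edgeR fit and cover the spread between libraries. The steps were tested on simulated data. Alternatives were other scalings and filters, DESeq2 1.42.0, limma-voom 3.58.1 with quality weights, each library left out, both libraries numbered 3 left out, the code division and the replicate number as a block. Libraries of a group differed by more than sampling noise.

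The members and gene lists were chosen with earlier results of these data known. Named are all members, Lpcat3, Psmb5 to Psmb7, Psme1, Psme2, up to 3 genes per list with the smallest p, and the 6 genes most like the members' mean (at least 1 CPM, no predicted symbol). Genes named as filtered were taken after their values were seen. The labels state no pairing by replicate number, and the main test did not pair the samples.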

Additional observations from a re-analysis of the deposited data

Results flagged for a closer look

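In 3 of 92 groups of 4 values examined, 1 library stood far from the other 3 of its group, where chance gives about 1 in 20 groups. Psmb6, a constitutive proteasome subunit, was at 35.0 CPM in eGFP replicate 2, against 31.6 to 31.9 CPM in the other eGFP libraries. Klra2 was at 6.58 CPM in Lpcat3 replicate 1, against 4.28 to 4.42 CPM in the other Lpcat3 libraries. Mpg was at 1.8 CPM in eGFP replicate 2, against 2.26 to 2.32 CPM in the other eGFP libraries. No member of the class I set was among them.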

How the results depend on the processing

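No member was called under any of the 18 alternatives (smallest adjusted p 0.408), and their log2 fold changes stayed within -0.21 to 0.36. Over all genes, edgeR called 1 gene higher, against 3 with library totals, 28 (and 23 lower) with DESeq2, 2 without robust estimation and 0 with no count filter, without both libraries numbered 3, with the code division or with the replicate block. Without single libraries it called 0 to 7, and members below 0 numbered 3 to 7. With library totals 9 of 10 members were below 0, against 6.

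The following log2 fold changes changed sign, and none passed the test. With library totals, which moved the median gene to -0.13, they were -0.021 for H2-K1, -0.088 for Tapbp, -0.11 for Psmb8, -0.12 for Psmb5, -0.048 for Psmb6, -0.0088 for Psmb7, -0.12 for Psme1, -0.0041 for Psme4, -0.0072 for Psmg1, -0.0033 for Psmb4, -0.051 for Mpg, -0.0035 for Iigp1, -0.072 for Ppp4r1l-ps and -0.13 for Tgtp1. With limma-voom they were -0.027 for Psmb8, -0.0051 for Psme1, -0.021 for Igtp and -0.23 for Tgtp1. Without both libraries numbered 3 they were -0.025 for Psmb8, -0.0026 for Psmb5, -0.036 for Psme1, -0.13 for Igtp, -0.027 for Mpg, -0.020 for Ppp4r1l-ps and -0.38 for Tgtp1. With RLE factors they were 0.0028 for Psmb9 and 0.0038 for Rps27, with DESeq2 0.0040 for Psmb9 and 0.0028 for Rps27, with no filter 0.00082 for Rps27, with at least 1 CPM in 4 libraries -0.0030 for Psmb5 and -0.0012 for Psme1, and with the code division -0.0065 for Psmb5 and -0.0058 for Psme1. The causes were not tested.

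Leaving out 1 library gave -0.18 to 0.089 for Tap1, -0.090 to 0.099 for Psmb8, -0.19 to 0.15 for Psmb9, -0.14 to 0.077 for Nlrc5, -0.028 to 0.032 for Psmb5, -0.067 to 0.082 for Psme1, -0.14 to 0.042 for Psme2, -0.12 to 0.397 for Igtp, -0.053 to 0.045 for Rps27, -0.049 to 0.18 for Mpg, -0.023 to 0.13 for Ppp4r1l-ps and -0.46 to 0.45 for Tgtp1. The log2 ratio differences ran from -0.091 to 0.11 (Psmb8 to Psmb5) and from -0.25 to 0.060 (Psmb9 to Psmb6). Without both libraries numbered 3 that of Psmb8 to Psmb5 was -0.026, and within codes 1290 and 1317 the differences were -0.057 (Psmb8 to Psmb5) and 0.060 (Psmb9 to Psmb6).

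Correlations with Nlrc5 without 1 library ran from 0.827 to 0.934 (B2m), 0.519 to 0.876 (H2-K1), 0.680 to 0.899 (Tap1), 0.693 to 0.875 (Tap2), 0.702 to 0.950 (Psmb9) and 0.402 to 0.909 (Psmb10). With library totals H2-K1 (0.82) and H2-D1 (0.78) passed. Deviations of same-numbered libraries had r = 0.28, -0.07, -0.40 and -0.12, values too few to decide whether the numbers pair samples. Replicates numbered 1 share code 1290 and those numbered 4 share code 1345, and the labels state no pairing. With the replicate block r was 0.79 for B2m, 0.57 for Tap1, 0.77 for Tap2, 0.72 for Psmb8, 0.71 for Psmb9 and -0.297 for Tapbp, none of which passed. Lpcat3 passed with library totals (adjusted p = 0.0234), with DESeq2 and without Lpcat3 replicate 1 (0.0477).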
